A study of Mus musculus with 2 samples.

Results

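The unfolded protein response and chaperone genes of mouse embryonic fibroblasts (MEFs) were compared between wildtype cells and cells lacking Malat1, a long noncoding RNA of nuclear speckles. The genes were taken from a list of 41 symbols for chaperones of the endoplasmic reticulum (ER), signalling genes of the unfolded protein response, amino acid response genes and heat shock genes, matched by symbol to probe sets with 1 gene symbol. Of the 41 listed genes 39 were matched, out of 18194 genes on the array, and Hsp90ab1 and Hsf1 were not analysed here. The list was divided by role into 5 branches. The sensor branch had 4 genes, for the sensors and the transcription factor Xbp1. The others were 17 genes of ER folding, 6 of the Atf4 and amino acid response, 11 cytosolic heat shock genes (9 matched) and 3 mitochondrial chaperones.

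RNA was measured on 2 Affymetrix Mouse430_2 arrays, 1 for each genotype. Both groups were C57BL/6 embryonic fibroblasts from embryonic day 13.5, grown for 2 weeks and left untreated, and 1 carried the wildtype allele of Malat1 and the other the Malat1 knock-out. The labels do not state the allele design or how many embryos were pooled. With 1 array for each genotype no difference has a replicate check, so no p-value is given and a fixed size of 1.5-fold stands in for a test.

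Proteins that enter the secretory pathway are folded in the ER by chaperones such as BiP (encoded by Hspa5) and by disulphide isomerases, and fibroblasts, which secrete large amounts of collagen, rely on this machinery. When unfolded proteins build up, the membrane sensors PERK (Eif2ak3), IRE1 (Ern1) and ATF6 (Atf6) become active. ATF6 and the spliced form of Xbp1 switch on ER chaperone genes, while PERK phosphorylates the translation factor eIF2, which slows protein synthesis and favours translation of Atf4. Atf4 is also reached by other eIF2 kinases, for instance when amino acids are scarce, and it switches on genes of amino acid supply and stress. The heat shock response is a separate system for the cytosol, driven by Hsf1.

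Some promoters of these genes hold sites known from these responses, and the stretches below were picked from genes with a match. The branches were set by role and not by sequence, and many members hold none of the sites in the bases searched. Promoters of 33 members came from RefSeq (mouse build GRCm38.p6), each with 250 bases before and 50 bases after the annotated start. They were searched on both strands for the ER stress element ERSE (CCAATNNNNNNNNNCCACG), the shorter ERSE-II (ATTGGNCCACG), the UPRE core (TGACGTGG), the core of the C/EBP-ATF element bound by Atf4 (CARE, TGATGNAA) and a heat shock element (GAANNTTCNNGAA). Capitals mark the fixed bases of a match, and each stretch reads 5′ to 3′ on the strand of the gene.

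Hspa5, chr2:34771990-34772089, plus strand, ERSE: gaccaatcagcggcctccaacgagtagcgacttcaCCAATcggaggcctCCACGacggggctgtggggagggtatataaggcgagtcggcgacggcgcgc
Creld2, chr15:88819506-88819585, plus strand, ERSE in reverse: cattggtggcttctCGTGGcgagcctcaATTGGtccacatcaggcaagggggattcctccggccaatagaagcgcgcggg
Asns, chr6:7693210-7693289, minus strand, CARE core: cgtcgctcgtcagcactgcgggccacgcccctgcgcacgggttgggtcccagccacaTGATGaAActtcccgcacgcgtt
Chac1, chr2:119351022-119351101, plus strand, CARE core in reverse: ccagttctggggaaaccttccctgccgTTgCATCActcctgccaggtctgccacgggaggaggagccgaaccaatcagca
Herpud1, chr8:94386309-94386428, plus strand, CARE core in reverse and then ERSE-II: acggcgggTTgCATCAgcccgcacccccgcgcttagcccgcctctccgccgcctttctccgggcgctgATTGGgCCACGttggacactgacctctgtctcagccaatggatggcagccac
Hspe1, chr1:55088028-55088107, plus strand, heat shock elements on both strands that overlap: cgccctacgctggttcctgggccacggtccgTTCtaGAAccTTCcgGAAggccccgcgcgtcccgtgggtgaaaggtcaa

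An ERSE was present in 7 of the 15 ER folding genes with a promoter in the table (Hspa5, Hsp90b1, Calr, Canx, Pdia6, Dnajc3 and Creld2) and in 0.119% of all 32851 promoters. An ERSE-II was found in Herpud1 and Dnajb11, against 0.0365% of all promoters. The CARE core was found in 3 of 6 genes of the Atf4 branch (Asns, Chac1 and Trib3) and in 1 ER gene, Herpud1, against 3.97% of all promoters. In Trib3 the CARE core lies 14 to 21 bases after the annotated start, and in Dnajb11 the ERSE-II lies 7 to 17 bases after it. Heat shock elements were found in Hsph1 and in the mitochondrial pair Hspd1 and Hspe1, against 0.603% of all promoters, and the UPRE core, held by 0.676% of all promoters, was in none of the 33 members. In Hsph1 a match lies 15 to 27 bases after 1 annotated start and 36 to 48 bases after another. The only matches that overlapped each other in the members were the heat shock elements of Hspd1 and of Hspe1. The matches of these 2 genes, which share a promoter region, are reverse complements of each other, so they may be the same site counted for both. A match is a description of these letters, not evidence that a factor binds there. Sites farther from the start or spelled otherwise were not searched, so a gene without a match may still hold one.

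The arrays were described before the branches were compared. A log2 signal at or above the median of its array, here called the floor, was taken as measured. The floor was 5.39 for the wildtype and 5.44 for the knockout, and all 39 matched members were above it on both arrays. The brightest Malat1 probe set read 9.80 on the wildtype array and 4.53 on the knockout array, at least 20.6-fold lower, in the direction of the labels. Over the 11295 genes measured on both arrays the median difference, knockout minus wildtype, was -0.05 log2 units with an SD of 0.24, and 119 of these genes had the same value on both arrays. Different probe sets of the same gene gave differences with a pooled SD of 0.199 over 4883 genes, which describes the precision within these arrays and not the spread between cultures. All 18 hybridization spike-in probe sets were lower on the knockout array (median -0.23), while 3 of 3 18S rRNA controls were higher there, by 0.47 to 0.67. The part of these control signals in the differences given here was not tested. Xist read 4.50 on the wildtype array and 11.49 on the knockout array and the Y-linked Eif2s3y 8.57 and 2.81, so the sex-linked transcripts differ along with genotype, and their part in the differences given here was not tested.

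No member differed by 1.5-fold between the arrays, in either direction. Among all measured genes 0.832% were higher and 1.61% lower in the knockout by that size. At a smaller size of 0.32 log2 units, 3 of the 39 members were lower in the knockout (Trib3, Herpud1 and Chac1) and none was higher, against 9.91% and 5.96% of all measured genes, so the members as a whole did not stand apart from the background. Of the 39 members 22 were lower in the knockout and 17 higher, where 59.8% of all measured genes were lower. Their median was -0.03, and the differences ran from -0.58 to 0.28. With the median difference of the probe sets measured on both arrays set to 0, 16 of the 39 members and 47.6% of all measured genes were lower. With quantile normalization these were 19 members and 44.8% of genes, and with loess centring 20 members and 47.4%.

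**Figure D1:**
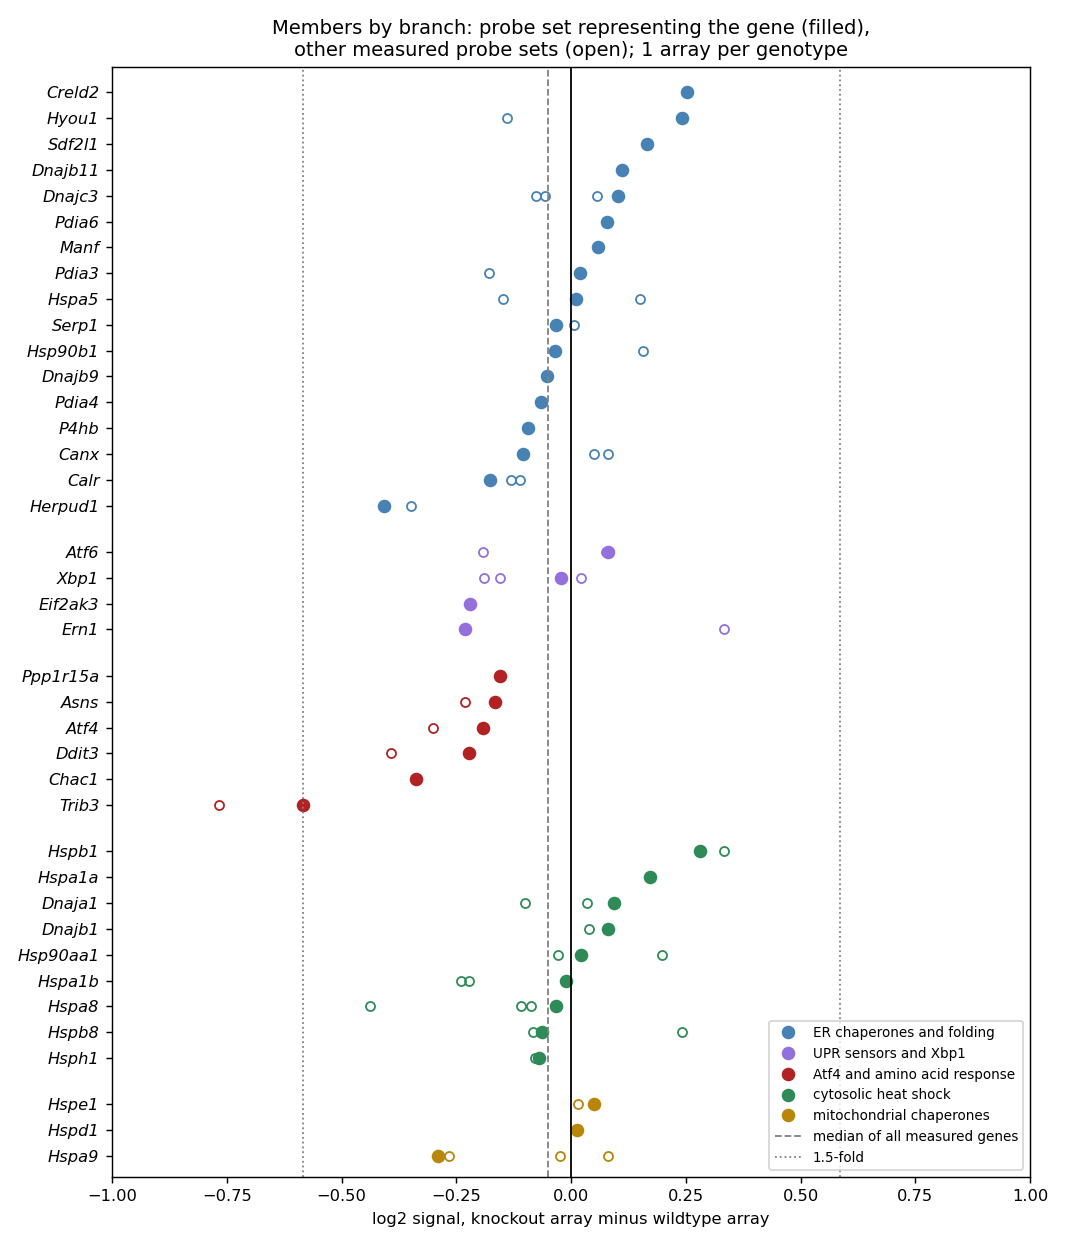
Log2 difference between the arrays (knockout minus wildtype) for the 39 matched members, ordered within 5 branches. Filled points are the probe set with the highest mean signal, open points the other probe sets measured on both arrays, the dashed line is the median of all measured genes (-0.05) and the dotted lines are 1.5-fold. All 10 points of the Atf4 branch lie left of the dashed line, while the ER branch lies on both sides of 0, with Herpud1 lowest.

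The branches differed in where their members lay. All 6 members of the Atf4 branch were lower in the knockout (median -0.21). The ER folding genes had a median of 0.01, with 8 lower and 9 higher, and the cytosolic heat shock genes a median of 0.02, with 4 lower and 5 higher. With the median difference of probe sets set to 0, 5 of the 17 ER genes were lower, and 2 of the 9 heat shock genes were lower with each of the 3 other scalings, under which the share of all measured genes lower was 44.8% to 47.6% in place of 59.8%. The 4 genes of the sensor branch had a median of -0.12 and the 3 mitochondrial chaperones 0.01. The median over all measured genes also differed with mean signal. It was -0.10 for a mean signal of 7 to 9, -0.05 for 9 to 11 and 0.01 for 11 to 15. The part of signal level in the branch medians was not tested. In bulk RNA such as this, fewer cells of a type and less RNA per cell cannot be told apart.

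The Atf4 branch begins with Atf4 itself, the transcription factor whose translation rises when eIF2 is phosphorylated. Atf4 read 12.19 on the wildtype array and 12.00 on the knockout array, a difference of -0.19, and its second measured probe set read 10.77 and 10.47, a difference of -0.30. Its dimmest probe set was below the floor on both arrays. Both measured probe sets were therefore lower in the knockout.

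Trib3, a pseudokinase induced by Atf4 that holds back the same pathway, had the largest difference of any member. It read 9.14 on the wildtype array and 8.55 on the knockout array, a difference of -0.58 or 1.498-fold, just outside the 1.5-fold size. Its other probe set read 8.77 and 8.00, a difference of -0.77 or 1.70-fold, past it. The first of these probe sets ends in _x_at, a class whose probes can match more than one gene, and the second does not. Of all measured genes 1.65% had a difference as low as that of the first Trib3 probe set, and no other member came between 1.4-fold and 1.6-fold.

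Chac1, an enzyme that degrades glutathione and is induced by Atf4, read 9.46 on the wildtype array and 9.12 on the knockout array, a difference of -0.34 from its only probe set. Of all measured genes 8.90% were as low. Ddit3, which encodes the transcription factor CHOP of prolonged ER stress, read 10.42 and 10.20 (-0.22), and its dimmer probe set 6.92 and 6.52 (-0.39). Asns, asparagine synthetase and a classical target of the amino acid response, read 11.92 and 11.75 (-0.17), and its second probe set 11.88 and 11.64 (-0.23). Ppp1r15a, the phosphatase subunit that reverses eIF2 phosphorylation, read 8.90 and 8.74, a difference of -0.16. The 6 genes thus lay between -0.58 and -0.16. All 10 of their probe sets measured on both arrays were lower in the knockout, where 61.7% of all such probe sets were lower. Their median was -0.27, against -0.06 over all such probe sets of the array. Probe sets of the same gene on the same arrays are not separate observations. All 6 genes also remained lower under the 3 other scalings of the arrays, which moved the branch median to between -0.18 and -0.15. Of all measured genes 44.8% to 47.6% were lower with those scalings.

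**Figure D2:**
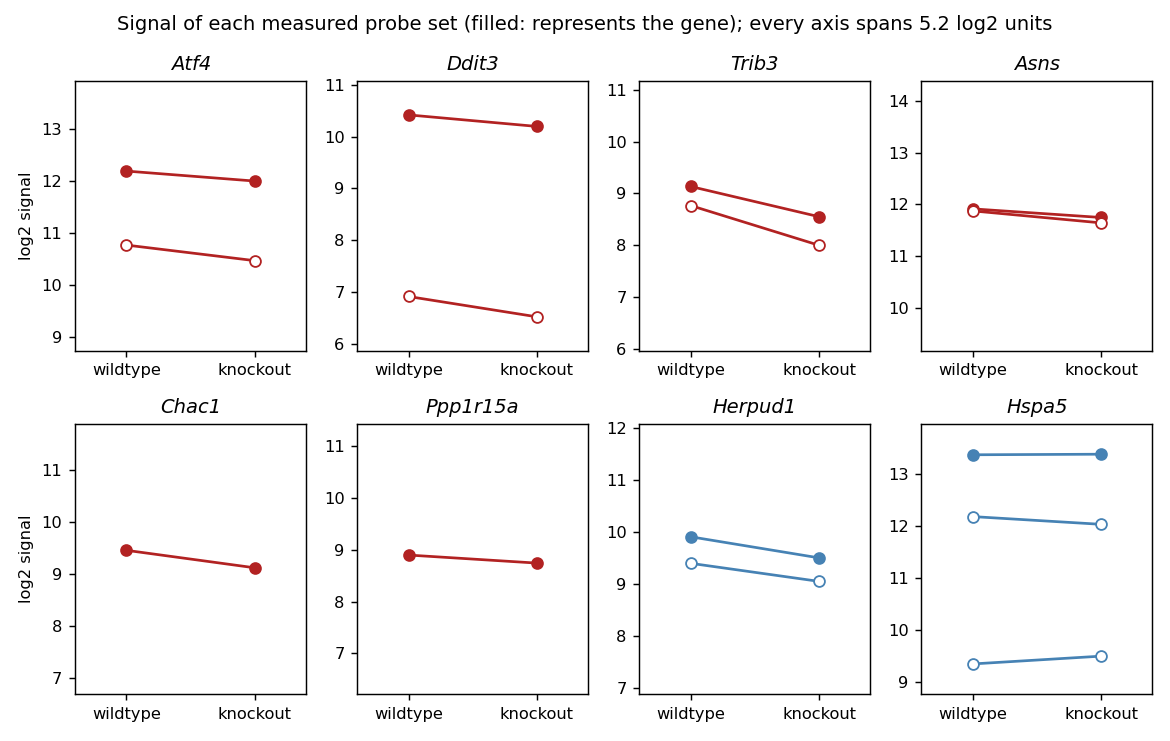
Log2 signal on the wildtype and knockout array of every measured probe set of the 6 Atf4 branch genes, of Herpud1 and of Hspa5. Filled points are the probe set that represents the gene. Each axis covers the same span, so slopes can be compared, and each line is 1 array against 1 array. The lines of Trib3 descend the most (-0.58 and -0.77), both lines of Herpud1 descend (-0.41 and -0.35), and the filled line of Hspa5 is level (0.01).

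The sensors upstream of these genes, and Xbp1, had small differences. Eif2ak3, the kinase PERK, read 8.77 on the wildtype array and 8.55 on the knockout array, a difference of -0.22, with its other 2 probe sets below the floor. Ern1, the kinase and RNase IRE1, read 7.79 and 7.56 (-0.23), but its other measured probe set, at 6.01 and 6.35, differed by 0.33 the other way. Atf6, which is cleaved to a transcription factor, read 8.31 and 8.39 (0.08), with further probe sets differing by 0.08 and -0.19. Xbp1, whose messenger is spliced by IRE1, read 11.83 and 11.81 (-0.02), with further probe sets at -0.16, -0.19 and 0.02. Whether any Xbp1 probe set is specific for a splice form is not known here. No direction shared by these 4 genes emerged, since the probe sets of Ern1, Atf6 and Xbp1 went both ways.

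The abundant ER chaperones were nearly level. Hspa5, the Hsp70 of the ER lumen, read 13.37 on the wildtype array and 13.38 on the knockout array (0.01), with further probe sets at -0.15 and 0.15. Hsp90b1, the Hsp90 of the ER, read 12.90 and 12.87 (-0.03) and at a second probe set 11.95 and 12.10 (0.16). The lectin chaperones Calr and Canx, which hold newly made glycoproteins, differed by -0.18 and -0.10. All 3 Calr probe sets were lower in the knockout, from -0.18 to -0.11, while the other 2 Canx probe sets were higher, at 0.05 and 0.08.

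Disulphide isomerases, which form and rearrange the disulphide bonds of secreted proteins, were also close to 0. Pdia3 read 13.32 and 13.34 (0.02), Pdia4 10.59 and 10.53 (-0.07) and Pdia6 12.68 and 12.76 (0.08). P4hb, which is both a disulphide isomerase and a subunit of collagen prolyl hydroxylase, read 13.31 and 13.21 (-0.09). Serp1, a small protein of the ER membrane, read 12.15 and 12.12 (-0.03).

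The cochaperones and smaller stress-induced proteins of the ER included the members with the largest values on the higher side of this branch. Creld2, an ER protein induced by stress, read 10.00 on the wildtype array and 10.25 on the knockout array (0.25, 1.19-fold), and Hyou1, a nucleotide exchange factor for BiP, 10.02 and 10.26 (0.24). The dimmer measured Hyou1 probe set, 8.24 and 8.10, differed by -0.14 the other way. Sdf2l1, a component of ER chaperone complexes, read 9.30 and 9.46 (0.17). The J-domain proteins that stimulate BiP differed by 0.11 for Dnajb11, 0.10 for Dnajc3 and -0.05 for Dnajb9, and the secreted factor Manf, which binds BiP, by 0.06. The 4 measured Dnajc3 probe sets were split, 2 lower and 2 higher. All of these lie within 0.32 log2 units of 0.

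Herpud1, a membrane protein of ER-associated degradation, stood lowest among the ER genes. It read 9.91 on the wildtype array and 9.50 on the knockout array, a difference of -0.41 or 1.33-fold, and its second probe set read 9.40 and 9.05, a difference of -0.35. Of all measured genes 5.60% were as low. Next lowest in the branch was Calr at -0.18. Among the 15 ER members with a promoter in the table, Herpud1 alone had a CARE core, in the stretch printed above, 112 to 105 bases before the start, and it holds an ERSE-II as well.

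Set side by side by promoter sequence, the 4 members with a CARE core (Trib3, Herpud1, Chac1 and Asns) were all lower in the knockout, from -0.58 to -0.17 with a median of -0.37. Atf4, Ddit3 and Ppp1r15a, of the Atf4 branch but without a CARE core in the bases searched, were lower as well, at -0.19, -0.22 and -0.16. A site outside those bases would have been missed. The 7 members with an ERSE lay between -0.18 and 0.25, with a median of 0.01, 3 lower and 4 higher. Over all measured genes the CARE letters went with a smaller difference. For the 245 measured genes with a CARE core, these members included, the median was -0.09 and 66.1% were lower, against -0.05 and 60.0% of the 9172 measured genes with a promoter in the table. This was not particular to the CARE core. Of the 100 genes with a UPRE core 66% were lower (median -0.08), and of the 54 with a heat shock element 63.0% (median -0.06). For the 8 genes with an ERSE-II the share was 75%, and for the 15 with an ERSE 46.7%.

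Of the cytosolic chaperones, Hspb1 was the member highest in the knockout. This small heat shock protein read 13.20 on the wildtype array and 13.48 on the knockout array, a difference of 0.28 or 1.21-fold, and its second probe set read 12.96 and 13.29, a difference of 0.33. Of all measured genes 7.63% were as high. Hspb8, another small heat shock protein, read 9.61 and 9.55 (-0.06), with further probe sets at -0.08 and 0.24. Other cells of an embryo culture also carry small heat shock proteins, muscle in particular. Of 7 muscle markers measured on both arrays 4 were lower and 3 higher, from -0.60 to 0.44, and the defining factors Myod1 and Myog were below the floor on both arrays. Over the 10 listed muscle markers the summed linear signal was 3679 on the wildtype array and 4071 on the knockout array. Most of this sum came from 1 gene, Acta1, which read 11.40 and 11.62 (0.22). The part of the muscle markers in the Hspb1 difference was not tested.

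The stress-inducible Hsp70 genes Hspa1a and Hspa1b differed by 0.17 (7.35 and 7.52) and by -0.01 (10.09 and 10.08). These genes are near-identical copies, so their probe sets may share signal, and the other 2 Hspa1b probe sets were lower in the knockout (-0.22 and -0.24). Hspa8, the constitutive Hsp70, read 13.70 and 13.67 (-0.03), and all 4 of its probe sets were lower, to -0.44 at the dimmest. Hsp90aa1, an Hsp90 of the cytosol, read 13.19 and 13.21 (0.02), and its other measured probe sets differed by -0.03 and 0.20. The Hsp110 gene Hsph1 differed by -0.07 and -0.08 at its probe sets, and the J-domain cochaperones Dnaja1 and Dnajb1 by 0.09 and 0.08. In the values as deposited, the inducible genes of the heat shock response therefore showed no shared direction. With each of the 3 other scalings 2 of the 9 heat shock genes were lower, against 44.8% to 47.6% of all measured genes.

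The mitochondrial chaperonin genes were level and the mitochondrial Hsp70 lower. Hspd1 and Hspe1, which encode Hsp60 and its lid Hsp10 and share a promoter region, read 12.80 and 12.81 (0.01) and 12.63 and 12.68 (0.05). Hspa9, the Hsp70 that draws proteins into mitochondria, read 11.82 on the wildtype array and 11.53 on the knockout array (-0.29), and its second probe set 11.44 and 11.18 (-0.27). The 2 dimmer measured Hspa9 probe sets differed by 0.08 and -0.02.

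Further genes of the same pathways, from 9 lists that hold none of the members, were then compared. These lists were chosen with earlier results of these data known and are read on the same 2 arrays, so they are no independent check of the branches. The list of Atf4 targets and amino acid supply was the lowest. Of its 29 genes measured on both arrays 27 were lower in the knockout, with a median of -0.31 against -0.05 over all measured genes, and 14 were lower by at least 0.32 log2 units. Of all measured genes 59.8% were lower, and 9.91% by that size. With the 3 other scalings 26 or 27 of the 29 were lower. At 1.5-fold 4 of the 29 were lower and none higher, against 1.61% and 0.832% of all measured genes. These were Gpt2, a transaminase that makes alanine, Pck2, the mitochondrial PEP carboxykinase, Atf5, a transcription factor related to Atf4, and Cth, which makes cysteine.

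Gpt2 read 9.12 on the wildtype array and 8.24 on the knockout array, a difference of -0.88, and its other 3 probe sets were lower too, by -0.84, -0.71 and -0.27. Pck2 read 10.66 and 9.87 (-0.78) and at a second probe set 7.20 and 6.47 (-0.73). Atf5 read 10.87 and 10.17 (-0.70) and Cth 9.37 and 8.78 (-0.60), each from 1 probe set. The exceptions in the list were Atf3, a stress-induced transcription factor, at 0.14 and the arginine transporter Slc7a1 at 0.02. In this list 5 of the 6 genes with a CARE core were lower, with a median of -0.37. Over the 23 genes with a promoter in the table the median was -0.31. Genes of the list were thus lower with and without these letters in the bases searched. The cystine transporter Slc7a11 was measured on the wildtype array alone, at 5.64 against 5.40.

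**Figure D3:**
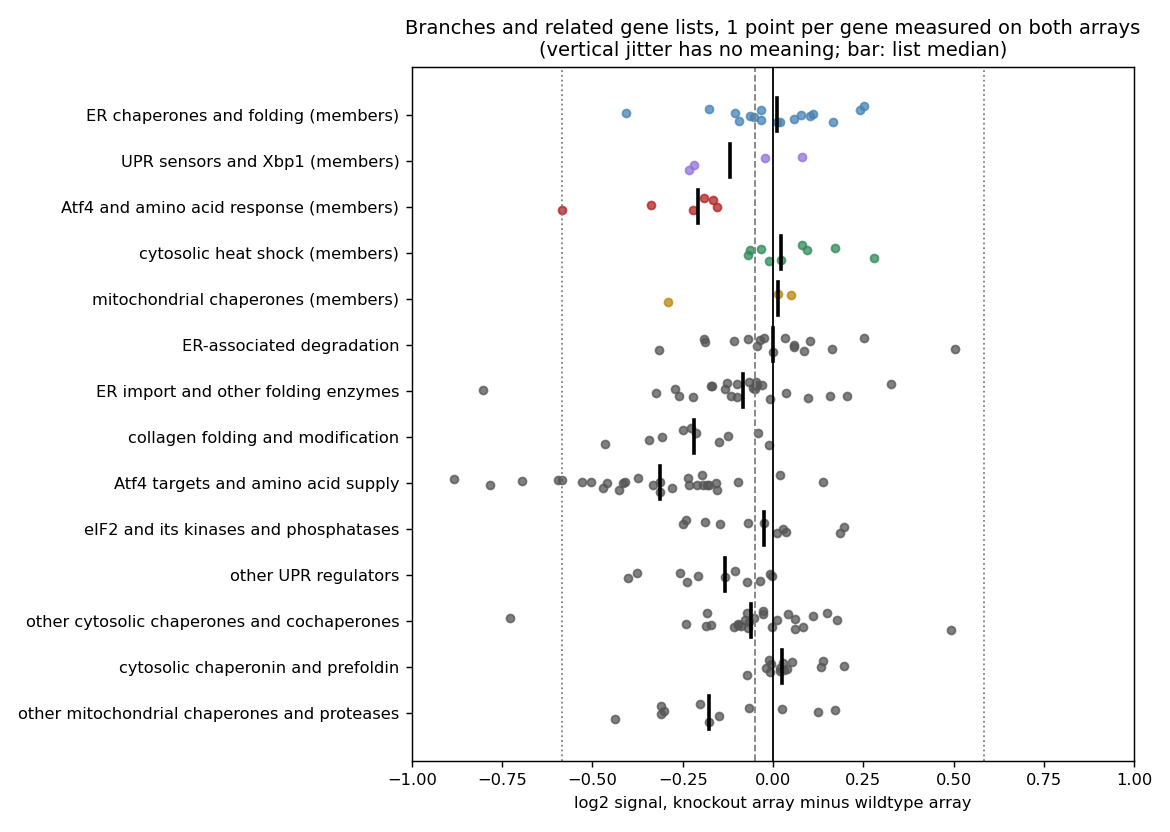
Log2 difference (knockout minus wildtype) of every gene measured on both arrays, 1 point per gene, for the 5 branches of members (coloured) and 9 lists of related genes (grey). Black bars are list medians, the dashed line is the median of all measured genes (-0.05) and the dotted lines are 1.5-fold. The Atf4 targets spread farthest to the left, with a median of -0.31, while ER-associated degradation and the cytosolic chaperonin are centred near 0, at 0.00 and 0.02.

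The lists on ER quality control lay nearer to the background, in which 59.8% of all measured genes were lower and 1.61% lower by 1.5-fold. With the 3 other scalings 44.8% to 47.6% of all measured genes were lower. Genes of ER-associated degradation had a median of 0.00 (17 genes, 8 lower, 8 higher and 1 equal), from the ubiquitin ligase gene Syvn1 at -0.32 to Derl3 at 0.50, whose wildtype signal of 5.71 lay near the floor. ER import and other folding enzymes had a median of -0.08 (24 genes, 19 lower), and 1 passed 1.5-fold. By other scalings 13 to 17 of the 24 were lower. This was Kdelr1, a receptor that returns chaperones to the ER, at 11.75 and 10.94 (-0.80), while Ero1b was the highest at 0.33. All 11 measured genes among the other regulators of the response were lower (median -0.13), from Creb3l1, an ER-bound transcription factor of collagen-producing cells, at -0.40 to Creb3 at -0.0021. With other scalings 7 or 8 of these 11 were lower. The eIF2 subunits, kinases and phosphatases had a median of -0.02 over 11 genes, from the kinase gene Eif2ak1 at -0.25 to Eif2b2 at 0.20, and the median was above 0 under each of the 3 other scalings.

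Enzymes and chaperones of collagen, 10 of 10, were lower in the knockout (median -0.22), from the lysyl hydroxylase Plod1 at -0.46 to Plod2 at -0.01, and 8 or 9 of the 10 were still lower with other scalings. Of all measured genes 59.8% were lower, and 44.8% to 47.6% with those scalings. The collagen chaperone Serpinh1 differed by -0.12. Fibroblast markers were lower beside them, 8 of 9 with a median of -0.37, among them Col1a1 at -0.95 and Pdgfra at -0.73, while Vim was level at 0.05. Their summed linear signal was 96254 on the wildtype array and 83837 on the knockout array. Markers of epithelium and endothelium were higher, 4 of 4 measured in each list, although Cdh1, Pecam1 and Cdh5 were below the floor on both arrays. Summed over all listed markers, those below the floor included, the linear signals were 643 and 897 for the 10 epithelial genes and 864 and 1361 for the 8 endothelial genes. Macrophage and leukocyte markers were lower in 7 of 9, with summed signals of 3961 and 3185. The part of these cell type markers in the Atf4 branch and collagen results was not tested.

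Among the remaining lists, the cytosolic chaperonin and prefoldin, which fold actin and tubulin, were nearly level, with a median of 0.02 over 14 genes between -0.07 (Vbp1) and 0.20 (Pfdn6). Other cytosolic chaperones had a median of -0.06 over 26 genes, of which 17 were lower, and 13 with each of the 3 other scalings. The small heat shock protein Hspb6 alone passed 1.5-fold in that list, at 8.70 and 7.97 (-0.73), and Cryab, a further gene of this family, was the highest at 0.49, with a second measured probe set at 0.35. The small heat shock proteins thus went both ways, Hspb6 lower and Cryab and Hspb1 higher. Other mitochondrial chaperones and proteases were lower in 8 of 11 genes (median -0.18), from the protease Lonp1 at -0.44 to the protease subunit Clpp at 0.17. The share of all measured genes that were lower was 59.8%.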

How the data were processed

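MEF RNA was measured on 1 Affymetrix Mouse430_2 array for each genotype. Per the labels' protocols, 100 ng of total RNA from Trizol extraction was labelled with a 3′ expression kit. The values deposited by the authors were taken as log2 signals, because they range from 2.09 to 14.71. How they were summarized and normalized is not stated in the sources used here. Probe sets were named through the platform's annotation, and 34958 had 1 symbol. Each gene was represented by its probe set with the highest mean signal. The floor was the median of 45037 probe sets that are not controls, taken on each array. Values were used as deposited and differences taken as knockout minus wildtype, with Python 3.11.15, pandas 2.3.3 and statsmodels 0.14.6. No test was made, since 2 arrays allow none, and their number limits the precision. All members were named, and from each related list the genes past 1.5-fold or otherwise the extremes. Second probe sets and a few markers and list genes were added after their values were seen. In the related lists 8 of the names matched no gene. The members and lists were chosen with earlier results of these data known. A smaller size of 1.25-fold is 0.32 log2 units. The code that rescales the arrays and counts differences past 1.5-fold was tested on simulated data. The simulated shifts were larger than any member's difference, and the noise was smaller than the spread between probe sets. That test therefore does not bear on differences of the size reported here. Protein sequences were not used here.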

Additional observations from a re-analysis of the deposited data

How the results depend on the processing

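The arrays were rescaled by setting the median difference of probe sets measured on both to 0, by quantile normalization or by loess. The floor was dropped or moved to percentile 40 or 75, 16 was added to linear values, and genes were summarized by the mean of measured probe sets, by the median of all, or with _x_at and _s_at probe sets left out. The size was also set to 0.32 log2 units and to 2-fold. No paired analysis was possible because there is 1 array for each genotype. No member was higher by the chosen size under any of these. The number lower was 0 as reported, 3 at 0.32 log2 units, and 1 (Trib3) with the mean of probe sets, with the median of all and without _x_at and _s_at. All 6 genes of the Atf4 branch stayed lower in all 10 alternatives of scaling, floor and probe set. Their medians ran from -0.30 (median of all probe sets) to -0.15. Of all measured genes 44.8% to 64.9% were lower in these alternatives. Several of them could not change a sign. A changed floor leaves each difference as it is, and adding 16 to linear values keeps its direction. All measured probe sets of the branch were lower, which also fixed the sign of their mean and of the result without _x_at and _s_at. A median counted as moved when it shifted by more than the pooled probe set SD divided by the root of the number of genes. A list with more genes thus counts as moved at a smaller shift. Setting the median difference to 0 moved the ER branch to 0.072, with 5 genes lower. That setting adds the same amount to every difference, in the branches and in the related lists. The median of all measured genes went from -0.05 to 0.011 with it. The heat shock genes that were lower numbered 2 under each scaling. By the median of all probe sets, 1 of 2 measured genes of the sensor branch and 0 of the mitochondrial chaperones were lower.

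Among the related lists, setting the median difference to 0 gave -0.25 for Atf4 targets, 0.061 for ER-associated degradation, -0.021 for ER import, 0.037 for the eIF2 genes, -0.071 for other regulators, 0.0015 for other cytosolic chaperones, 0.085 for the chaperonin and -0.12 for other mitochondrial genes. Quantile normalization gave -0.27 for Atf4 targets, -0.15 for collagen folding, 0.057 for the eIF2 genes, -0.070 for other regulators, -0.00014 for cytosolic chaperones and -0.090 for mitochondrial genes. Loess gave -0.16 for collagen folding, 0.038 for the eIF2 genes, 2.81e-05 for cytosolic chaperones and -0.092 for mitochondrial genes. The higher floor gave -0.35 for Atf4 targets. The mean of probe sets gave -0.15 for the eIF2 genes, -0.018 for cytosolic chaperones and -0.25 for mitochondrial genes. The median of all probe sets gave -0.079 for ER-associated degradation and -0.013 for cytosolic chaperones, and leaving out _x_at and _s_at gave -0.25 for mitochondrial genes. Of 386 values of single members 6 moved by more than the pooled SD. These were Pdia4, Hyou1 (in 2 alternatives), Ern1, Hspa1b and Hspa9, each under another choice of probe set.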
